A study of Mus musculus with 20 samples.

Results

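The genes described here encode the nuclear part of the mitochondrial respiratory chain and the ATP synthase. They were taken by name from the liver arrays, as every symbol that starts with Nduf followed by a, b, c, s or v, with Uqcr, with Cox4 to Cox8 or with Atp5, together with Sdha, Sdhb, Sdhc and Sdhd. The rule found 89 of 22180 named genes, which fell into 42 genes of complex I, 4 of complex II, 8 of complex III, 17 of complex IV and 18 of complex V. The livers came from 10 Bnc2 heterozygous and 10 wild-type (WT) mice. All were adult males of a mixed C57BL/6 and CBA background, and all were fed a choline-deficient, amino acid-defined diet enriched in fat, sucrose and cholesterol (CDAA-HFSC) for 7.5 weeks, which drives steatohepatitis and fibrosis. The heterozygous mice carried 1 copy of the Ayu21-18 allele, in which a gene trap vector inserted in an intron inactivates Bnc2, the gene of a zinc-finger transcription factor studied in myofibroblasts. The allele is a germline one and not limited to a cell type, and littermates served as WT.

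As background, complex I oxidizes NADH and complex II oxidizes succinate, and both pass electrons to ubiquinone. Complex III passes them on to cytochrome c, and complex IV hands them to oxygen. Complexes I, III and IV pump protons across the inner mitochondrial membrane, and complex V, the ATP synthase, uses that gradient to make ATP. Complex II is built from nuclear-encoded proteins alone, whereas the other complexes also contain subunits encoded by mitochondrial DNA. Hepatocytes hold many mitochondria and account for most of the RNA of a liver. How much of the whole-liver level of these genes comes from that cell type was not measured here. In whole tissue, fewer cells of a type and less RNA per cell cannot be told apart.

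Among the 89 genes, 70 encode structural subunits, 7 are isoforms of muscle, lung or testis, and 12 match by name only. The structural subunits comprised 33 genes of complex I, 4 of complex II, 7 of complex III, 9 of complex IV and 17 of complex V. Ndufa4 was kept with the complex I names although its protein is now placed in complex IV. The 12 name matches were the complex I assembly factors Ndufaf1 to Ndufaf8, the Ndufa4 paralog Ndufa4l2, the supercomplex assembly factor Cox7a2l and the pseudogenes Atp5c1-ps and Uqcrh-ps1. Levels are log2 array intensities, and a level of 6.99, the 95th percentile of the mean levels of 1088 olfactory receptor genes, was used as a floor for genes that liver does not need. Of the structural subunits 67 of 70 lay above it, the exceptions being Ndufs5, Atp5g1 and Atp5j2. None of the 7 isoforms and 8 of the 12 name matches lay above it. Probe sets that list several genes left 9 further symbols out, among them Cox6c, Ndufb2, Ndufs6 and Uqcr10. A probe set that lists Ndufs5 with Ndufs5-ps averaged 10.05 in heterozygous and 10.08 in WT livers, above the floor. The low level of Ndufs5 thus holds only for the probe set that names it alone. For 9 members 2 probe sets were averaged, and some of these pairs differed widely in level. For Cox5b, 1 probe set averaged 4.14 in heterozygous and 4.10 in WT livers, and the other 15.02 and 14.90.

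The arrays were alike in overall distribution, with medians of 6.66 to 6.77 and correlations between arrays of 0.987 to 0.994. The interquartile range was smallest on 4 arrays, those of WT mice 6 and 4 and heterozygous mice 9 and 10. Bnc2 itself averaged 5.41 in heterozygous and 5.37 in WT livers, with a difference of 0.04 (SE 0.09, adjusted p = 0.977, limma). Both levels were below the floor, and whether its probes lie beyond the gene trap is not known from these files, so this value does not check the genotype labels. Of 18 stellate cell and myofibroblast markers, 9 were lower in heterozygous livers at an unadjusted p under 0.05 and none was higher, and the mean of that list was 10.39 to 11.17 in heterozygous livers and 10.81 to 11.51 in WT livers. The same count was 2 of 17 lower for macrophages and Kupffer cells and 4 of 13 lower for T, B and NK cells. It was 0 of 11 for sinusoidal endothelial cells and 0 of 6 for cholangiocytes. Over all genes, 3.63% were lower and 2.78% higher at that level. Of 21 hepatocyte markers 1 was lower and 1 was higher by the same count, and the mean of the hepatocyte list was 17.36 to 17.66 in heterozygous livers and 17.33 to 17.64 in WT livers.

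The first question was whether losing 1 copy of Bnc2 changed the level of these genes. No member differed between genotypes after adjustment over all genes, 0 of 89 (limma with Benjamini-Hochberg adjustment, smallest adjusted p = 0.739), as was the case for 0 of 22180 named genes, a share of 0.0%. At an unadjusted p under 0.05, only Uqcrq was lower in heterozygous livers, 1 of 89 against 3.63% of all genes tested, and 0 of 89 were higher, against 2.78% of all genes. In either direction this made 1 of 89, against 6.41% of all genes. By sign alone, 46 members were lower and 43 higher in heterozygous livers, against 10877 lower and 11303 higher of all 22180 named genes. The median difference (heterozygous minus WT, log2 scale) was -0.0039 over the members and 0.0027 over all named genes, and the median size of the difference was 0.04 for members and 0.07 for all genes.

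The size of change that these data allow was small for most members. The 95% interval of the difference lay wholly within -0.3 and 0.3 on the log2 scale, which is a fold of 0.812 to 1.23, for 75 of 89 members (84.3%) and for 62 of 70 structural subunits (88.6%), against 54.6% of all named genes. Among structural subunits above the floor it was so for 62 of 67 (92.5%), and also for all 7 isoforms, which lay below the floor. Other lists varied in this share, with 82.4% for the tricarboxylic acid cycle and 76.1% for mitochondrial ribosomal proteins. It was 76.2% for hepatocyte markers and 16.7% for stellate cell and myofibroblast markers. The median standard error was 0.08 for members and 0.10 for all genes. The median standard deviation between mice within a genotype was 0.18 for members and 0.23 for all genes. An adjusted p above the threshold does not show that the genotypes were equal. The intervals state how large a difference could have gone unseen, and they are shown gene by gene in the plot of differences by complex.

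**Figure D1:**
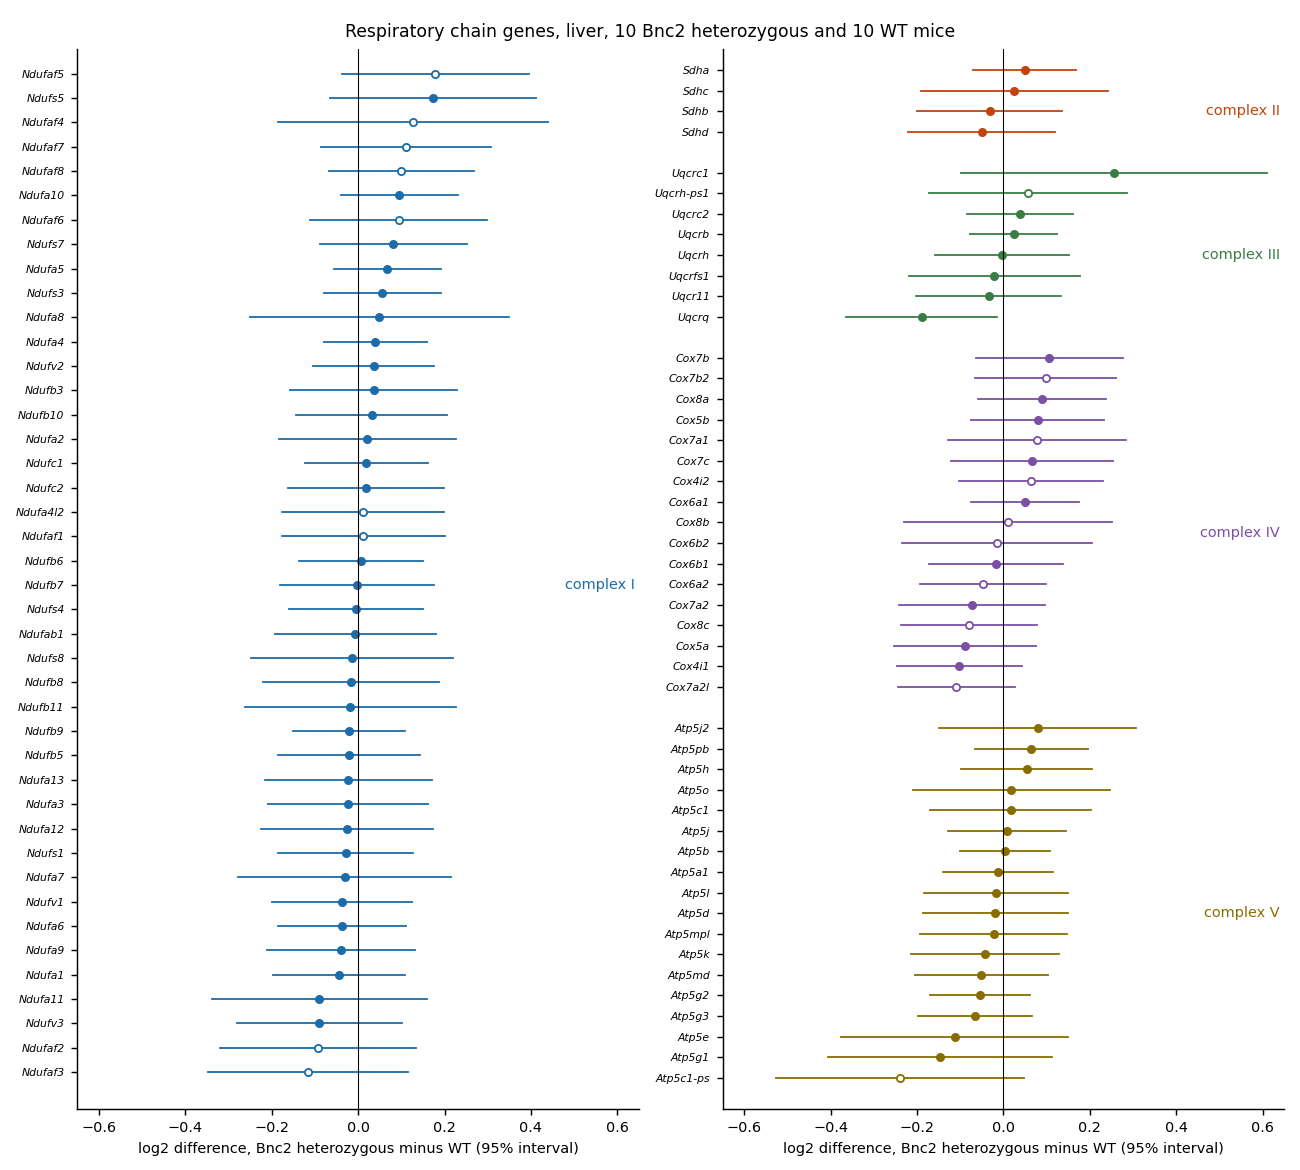
Difference in level between 10 Bnc2 heterozygous and 10 WT livers for all 89 members (x axis, log2 scale, heterozygous minus WT; points are fitted differences and bars 95% intervals from limma). Filled points are structural subunits, open points are isoforms and name matches, and the interval of Uqcrq is the one that leaves out 0.

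Complex I had a median difference of 0.00 over its 42 genes, of which 21 were lower and 21 higher. Its 6 measured core subunits, which carry the flavin and the iron-sulfur clusters of the peripheral arm, ranged from -0.04 for Ndufv1, the NADH-binding subunit, to 0.08 for Ndufs7, a carrier of the last cluster before ubiquinone. All 6 core intervals lay within -0.3 and 0.3. The 27 accessory subunits ranged from -0.09 to 0.17, and the highest of these, Ndufs5, was below the floor. The brighter probe set that lists Ndufs5 with Ndufs5-ps had a difference of -0.04. Ndufa10, an accessory subunit of the membrane arm, had a lowest, median and highest level of 15.16, 15.32 and 15.40 in heterozygous livers, against 14.98, 15.17 and 15.49 in WT livers. The heterozygous range lay within the WT range, with a difference of 0.10 (SE 0.07, adjusted p = 0.871, limma). Ndufa5, an accessory subunit of the peripheral arm, was above the WT mean in 9 of 10 heterozygous mice. It ranged from 10.58 to 11.02 in heterozygous livers and from 10.57 to 10.92 in WT livers, with a difference of 0.07 (SE 0.06, adjusted p = 0.914, limma).

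The assembly factors of complex I build the enzyme without being part of it. Of the 8, 6 were higher in heterozygous livers by sign, as were 11303 of all 22180 named genes. None of the 8 reached an unadjusted p under 0.05, and their median difference was 0.10. Ndufaf2 lay below the floor. Ndufaf5 had the smallest p of the complex I names, with a lowest, median and highest level of 7.58, 7.86 and 8.42 in heterozygous livers and 7.50, 7.69 and 8.21 in WT livers. Its difference was 0.18 (SE 0.10, adjusted p = 0.829, limma), and 8 of 10 heterozygous mice lay above the WT mean. Ndufaf8 differed by 0.10 (adjusted p = 0.905, limma) and Ndufaf7 by 0.11 (adjusted p = 0.91, limma), while Ndufaf3 differed by -0.12 (adjusted p = 0.928, limma). Only 3 of the 8 intervals lay within -0.3 and 0.3, so larger changes in these factors were not as well bounded as in the subunits.

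Complex II gave the same levels in both genotypes within the spread between mice. Sdha, the flavoprotein that oxidizes succinate, had a lowest, median and highest level of 16.63, 16.81 and 17.02 in heterozygous livers, against 16.67, 16.78 and 16.88 in WT livers. Heterozygous mouse 8 was highest and heterozygous mouse 3 lowest of all 20 mice, and the difference was 0.05 (SE 0.06, adjusted p = 0.944, limma). Sdhb, the iron-sulfur subunit, spanned 12.82 to 13.47 in heterozygous and 12.91 to 13.39 in WT livers, with a difference of -0.03 (SE 0.08). The membrane anchors Sdhc and Sdhd differed by 0.02 (SE 0.10) and -0.05 (SE 0.08). All 4 intervals lay within -0.3 and 0.3.

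Complex III held both the lowest and the highest differences among structural subunits. Uqcrq, a small subunit near the ubiquinone-binding region, read 10.86, 11.06, 11.14, 11.15, 11.18, 10.89, 11.37, 11.16, 10.98 and 11.17 in heterozygous mice 1 to 10, against 10.96, 11.52, 11.27, 11.50, 11.26, 11.21, 11.21, 11.58, 11.01 and 11.34 in WT mice 1 to 10. The ranges overlapped, although 9 of 10 heterozygous values were under the mean of the WT mice. The difference was -0.19 (SE 0.08), a fold of 0.877 (95% interval 0.777 to 0.99), with an unadjusted p = 0.0349 and an adjusted p = 0.739 from limma. The unadjusted p was above 0.05 without heterozygous mouse 1, 6 or 9 or without WT mouse 2, 4, 8 or 10, with a range of 0.0116 to 0.0726 over the 20 fits that each left out 1 mouse (limma).

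Uqcrc1, a core protein of the matrix side of complex III, had the largest positive difference. Its lowest, median and highest levels were 13.13, 14.05 and 14.43 in heterozygous livers and 13.18, 13.77 and 14.24 in WT livers. The difference was 0.26 (SE 0.17, adjusted p = 0.865, limma), and its standard deviation within a genotype, 0.41, was the largest among the members. The values ran from end to end of the same range in both genotypes, with 7 of 10 heterozygous mice above the WT mean. Uqcrc2, the other core protein, differed by 0.04 (SE 0.06, adjusted p = 0.961, limma). Over the 8 names of complex III the median difference was 0.01, with 4 lower and 4 higher.

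**Figure D2:**
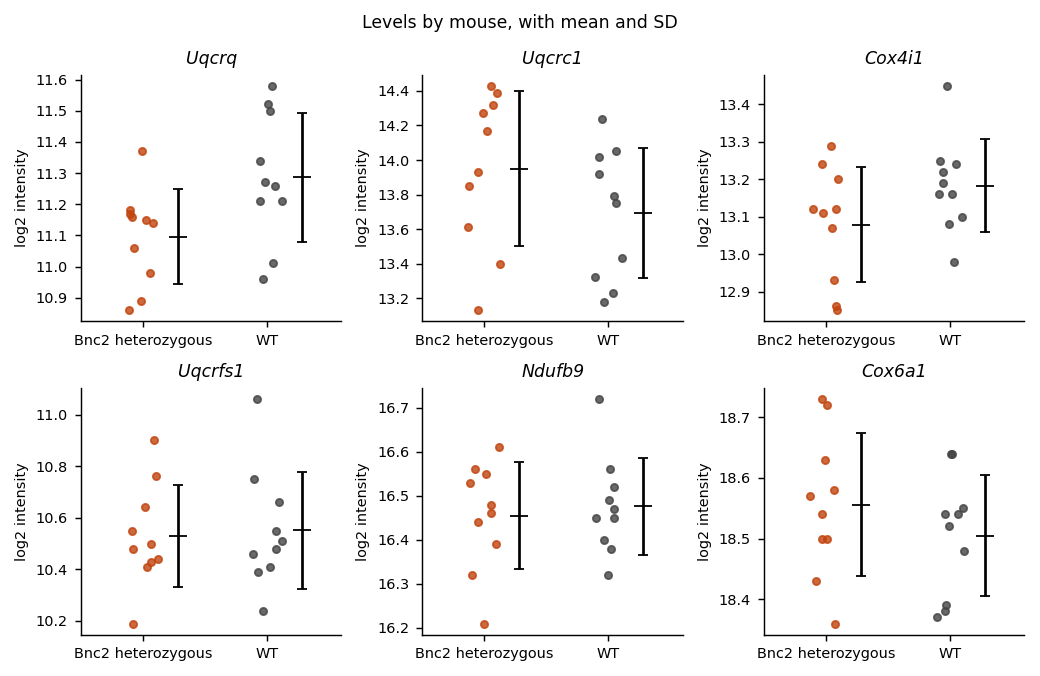
Levels of 6 subunits by mouse (y axes, log2 intensity; 1 point per mouse, 10 Bnc2 heterozygous mice at the left and 10 WT mice at the right of each panel; bars show mean and SD). The genotypes overlapped in every panel, including Uqcrq, which averaged 11.10 in heterozygous and 11.29 in WT livers.

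Complex IV had a median difference of 0.01 over 17 genes, and all 17 intervals lay within -0.3 and 0.3. Of these intervals, 7 belong to isoforms below the floor. Cox4i1, the isoform of subunit IV found in most tissues, had a lowest, median and highest level of 12.85, 13.11 and 13.29 in heterozygous livers, against 12.98, 13.17 and 13.45 in WT livers. The difference was -0.10 (SE 0.07, adjusted p = 0.869, limma), and 7 of 10 heterozygous values were under the mean of the WT mice. Cox7b, a small membrane subunit, differed in the other direction by sign, spanning 10.32 to 10.70 in heterozygous and 10.10 to 10.78 in WT livers, with a difference of 0.11 (SE 0.08, adjusted p = 0.892, limma). It is the mean of 2 probe sets, of which 1 averaged 6.32 in heterozygous and 6.17 in WT livers and the other 14.69 in heterozygous and 14.64 in WT livers. Cox7a2l, which helps join complexes III and IV, spanned 9.62 to 10.04 in heterozygous and 9.84 to 10.07 in WT livers, with a difference of -0.11 (SE 0.07, adjusted p = 0.838, limma).

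The isoforms of complex IV that other tissues use were all below the floor in both genotypes. The muscle isoforms Cox6a2, Cox7a1 and Cox8b averaged 5.80, 6.38 and 4.59 in heterozygous livers and 5.85, 6.30 and 4.58 in WT livers. Cox4i2, an isoform of lung and of low oxygen, averaged 4.98 in heterozygous and 4.91 in WT livers. The testis isoforms Cox6b2, Cox7b2 and Cox8c averaged 5.89, 5.53 and 4.37 in heterozygous livers and 5.91, 5.43 and 4.45 in WT livers. Their differences ran from -0.08 to 0.10, and their smallest unadjusted p was 0.228 (limma). All 9 structural subunits of the complex were above the floor in the same arrays.

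Complex V had a median difference of -0.02 over 18 genes, of which 11 were lower and 7 higher in heterozygous livers. Atp5b, which encodes the catalytic beta subunit, was among the least variable members, at 17.93 to 18.12 in heterozygous and 17.94 to 18.21 in WT livers, with a difference of 0.00 (SE 0.05). The alpha subunit gene Atp5a1 differed by -0.01 (SE 0.06). Of the Atp5g genes, which all encode the c subunit of the rotor ring, Atp5g3 spanned 13.50 to 13.74 in heterozygous and 13.50 to 13.90 in WT livers (difference -0.07, SE 0.06), and Atp5g2 spanned 15.52 to 15.81 in heterozygous and 15.63 to 15.97 in WT livers (difference -0.05, SE 0.06). Atp5g1, the other gene of the ring, was below the floor, with a difference of -0.15 (SE 0.12). Atp5pb, the b subunit of the stator stalk, was higher by sign, with a difference of 0.06 (SE 0.06) and levels of 14.83 to 15.33 in heterozygous against 14.89 to 15.19 in WT livers. Among these named subunits the smallest adjusted p was 0.91 (Atp5g1, limma).

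The second question was how the complexes varied between mice of the same genotype. The mean level over the structural subunits of a complex was taken in each mouse. Complex I averaged 11.78 ± 0.11 in heterozygous and 11.77 ± 0.08 in WT livers (SD, n = 10 each). Complex II averaged 14.50 ± 0.17 in heterozygous and 14.50 ± 0.11 in WT livers, and complex III 12.73 ± 0.13 in heterozygous and 12.72 ± 0.14 in WT livers. Complex IV averaged 12.95 ± 0.09 in heterozygous and 12.94 ± 0.09 in WT livers, and complex V 12.44 ± 0.09 in heterozygous and 12.46 ± 0.07 in WT livers. For every complex the genotypes differed by much less than the spread between mice.

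The same mice stood high or low in several complexes. Over all 70 structural subunits the highest heterozygous means were those of mice 5 and 7, at 12.49 each, and the lowest that of mouse 1, at 12.19. Among WT mice the highest was mouse 8, at 12.52, and the lowest mouse 9, at 12.26. WT mouse 8 had the highest WT mean in all 5 complexes. Heterozygous mouse 7 had the highest heterozygous mean of complexes I and II, and heterozygous mouse 5 that of complexes III, IV and V. Heterozygous mouse 1 was lowest for complexes I and V, mouse 2 for complex II, mouse 3 for complex III and mouse 9 for complex IV. The distance between the extreme mice of a genotype was 0.25 to 0.52, which is a modest range on the log2 scale.

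**Figure D3:**
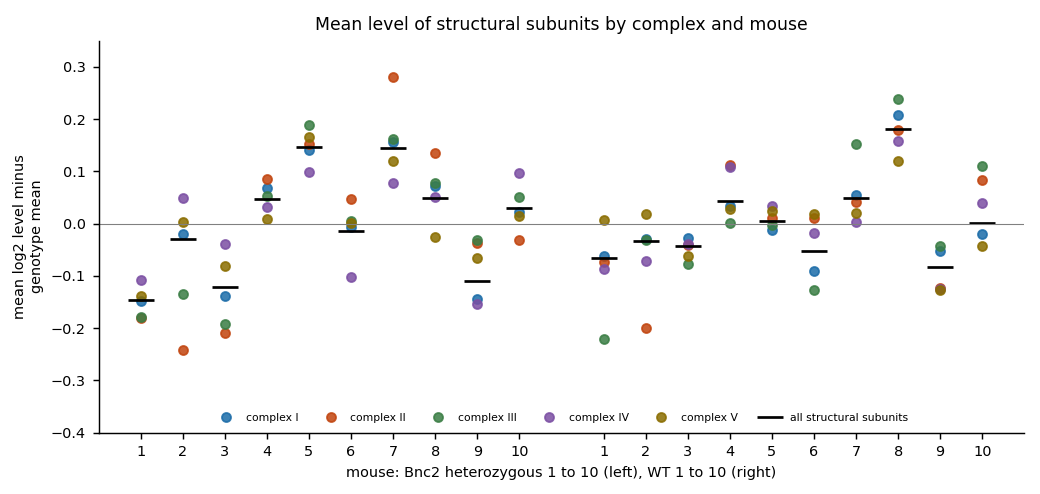
Mean log2 level of the structural subunits of each complex in each mouse, minus the mean of its genotype (y axis, log2 scale; coloured points are complexes I to V, black bars the mean over all 70 structural subunits). All 5 complexes sit on one side of 0 in heterozygous mice 1, 3, 4, 5, 7 and 9 and in WT mice 3, 4, 7, 8 and 9.

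With genotype means removed, the 10 pairs of complex means had correlations of 0.597 to 0.857 over 20 mice. Complexes I and III gave the highest (Pearson r = 0.857, Spearman rho = 0.860, and r = 0.795 without heterozygous mouse 7 and WT mouse 8, the 2 mice farthest from the median of complex I). Within genotypes this pair had r = 0.891 in heterozygous mice and r = 0.836 in WT mice. Complexes II and IV gave the lowest (r = 0.597, rho = 0.645), with r = 0.417 in heterozygous and r = 0.913 in WT mice. Complexes III and V had r = 0.651, with 0.845 in heterozygous and 0.411 in WT mice. All 10 pairs were positive in each genotype. Each complex mean is a score over chosen members and all values come from the same arrays and the same normalization, so these correlations are descriptions and no p is given. Whether they differ between genotypes was not tested.

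Single subunits showed the same in weaker form. Over the 2415 pairs of structural subunits the median correlation was 0.291, and 83.4% of pairs were above 0, compared with a median of 0.061 and 58.0% over all pairs of named genes whose level reached the median. Pairs within a complex had a median of 0.301 and pairs across complexes one of 0.288, so these medians differed little. In heterozygous mice alone the median over subunit pairs was 0.378, and in WT mice it was 0.235, where all gene pairs gave 0.060 in heterozygous and 0.069 in WT mice. The first principal component of the 70 subunits took 32.6% of their scaled variance, and 69 of 70 subunits had the same sign on it.

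By complex, the 4 subunits of complex II were the most alike, with a median pairwise correlation of 0.636. Structural subunits of complex III had a median of 0.403, those of complex IV 0.351, those of complex I 0.312 and those of complex V 0.187. When the isoforms below the floor were counted in, the median of complex IV was 0.084. Other gene lists measured in the same livers gave medians of the same order, with 0.316 for 71 mitochondrial ribosomal proteins. The median was 0.212 for 38 proteasome subunits and 0.190 for 68 cytosolic ribosomal proteins. It was 0.284 for the 17 genes of the tricarboxylic acid cycle list, which includes Pdha1, Pdhb, Pdhx and Dlat of pyruvate dehydrogenase. Isoforms and name matches were set aside for the 70 subunits but not for these lists, which kept genes such as Psma8 and Rpl3l. Of the proteasome list 35 of 38 genes lay above the floor, and of the cytosolic ribosomal list 55 of 68. All 89 members gave a median of 0.222. The strongest single pair was Ndufs1, the largest iron-sulfur subunit of complex I, with Sdha of complex II (r = 0.886). Of the 10 strongest pairs 8 joined subunits of different complexes, as did 1688 of all 2415 pairs.

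**Figure D4:**
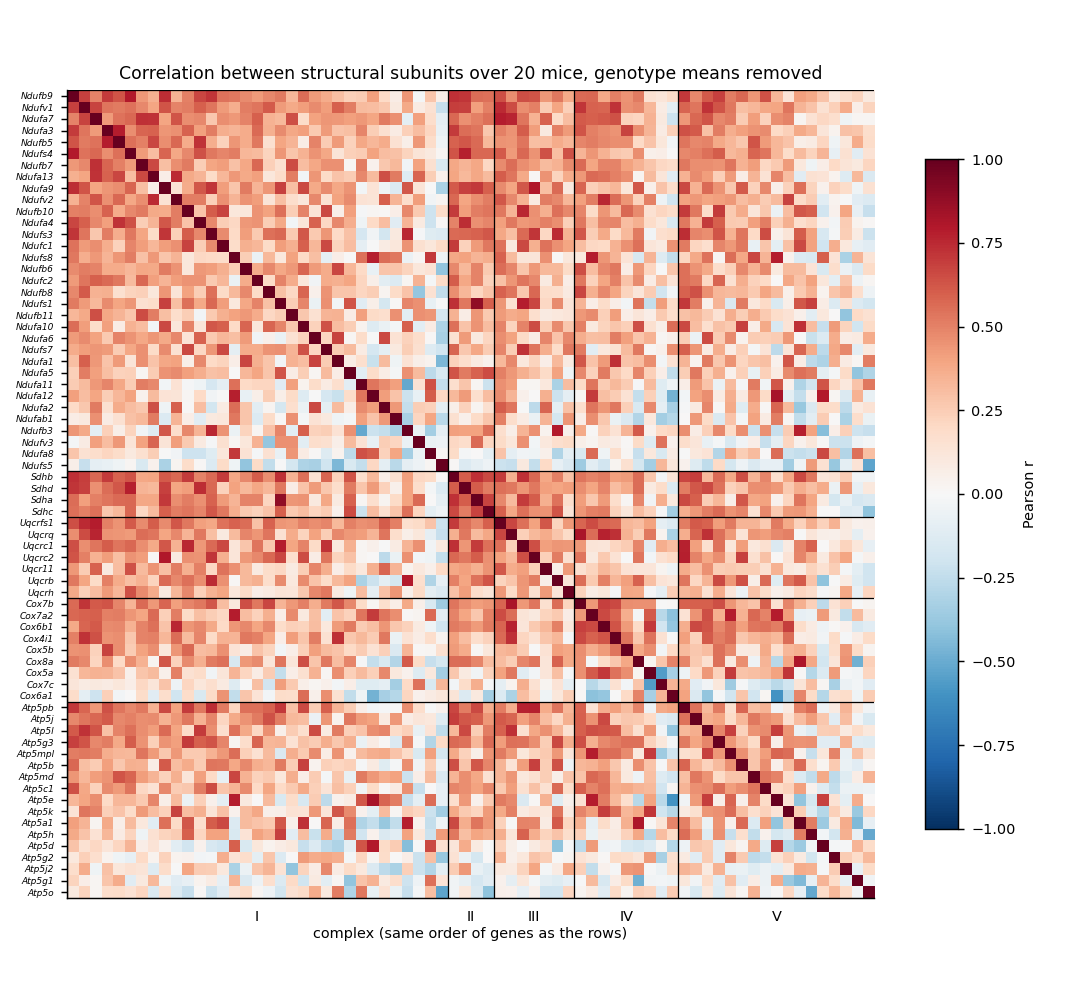
Pearson correlation between all pairs of 70 structural subunits over 20 mice with genotype means removed (colour scale from -1 to 1; rows and columns in the same order, by complex and then by correlation with the mean of the other subunits). Red covers most of the matrix across complex borders, and the pale or blue bands belong to genes such as Ndufs5, Cox6a1, Cox7c and Atp5o.

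**Figure D5:**
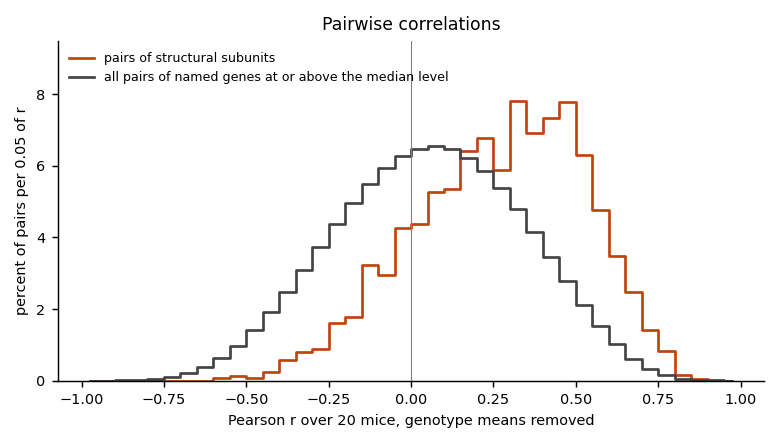
Distribution of pairwise Pearson correlations over 20 mice, genotype means removed (x axis, r; y axis, percent of pairs in each bin of 0.05). Pairs of structural subunits have a median of 0.291 and all pairs of named genes whose level reached the median have one of 0.061.

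Each subunit was then set against the mean of the other structural subunits. The median correlation was 0.516, and 41 of 70 subunits (58.6%) were above 0.5, compared with 9.02% of the other named genes whose level reached the median. Uqcrfs1, the Rieske iron-sulfur protein of complex III, followed the others best (r = 0.846, rho = 0.799, with 0.836 in heterozygous and 0.903 in WT mice). Its level had a lowest, median and highest value of 10.19, 10.49 and 10.90 in heterozygous livers, against 10.24, 10.49 and 11.06 in WT livers, with the extremes in heterozygous mice 1 and 7 and in WT mice 6 and 8. Ndufb9, an accessory subunit of the membrane arm of complex I, had r = 0.839 and spanned 16.21 to 16.61 in heterozygous and 16.32 to 16.72 in WT livers. Ndufv1 had r = 0.82 and spanned 12.19 to 12.94 in heterozygous and 12.47 to 12.86 in WT livers. WT mouse 8 was the highest WT mouse for all 3 of these genes.

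The 3 subunits above the floor that followed the others least had correlations near 0. Cox6a1, the liver form of subunit VIa, had r = 0.008 and spanned 18.36 to 18.73 in heterozygous and 18.37 to 18.64 in WT livers. Cox7c, a small membrane subunit of complex IV, had r = 0.060 and spanned 6.96 to 7.77 in heterozygous and 6.99 to 7.54 in WT livers, close to the floor. Atp5o, which links the head of the ATP synthase to its stator stalk, had r = 0.068 and spanned 7.34 to 8.22 in heterozygous and 7.67 to 8.29 in WT livers. The 3 subunits below the floor had r of -0.16 to 0.14, and the 7 isoforms had a median of -0.14.

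The bases just before the start site are shown for subunits that followed the others best (Uqcrfs1 and Ndufv1, with Ndufb9 named only) and least (Cox6a1, Cox7c and Atp5o). Sequences are from RefSeq on build GRCm38.p6, 170 bases ending at the base before the annotated start, read 5′ to 3′ on the strand of the gene, with capitals for letters of the motifs of NRF1, GABP and ERR, which are known regulators of respiratory genes, and of YY1.
Uqcrfs1, chr13:30545317-30545486, minus strand: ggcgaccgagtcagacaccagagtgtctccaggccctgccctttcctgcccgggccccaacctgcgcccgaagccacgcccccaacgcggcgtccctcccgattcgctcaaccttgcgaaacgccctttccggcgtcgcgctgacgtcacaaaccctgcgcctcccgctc
Ndufv1, chr19:4012756-4012925, minus strand: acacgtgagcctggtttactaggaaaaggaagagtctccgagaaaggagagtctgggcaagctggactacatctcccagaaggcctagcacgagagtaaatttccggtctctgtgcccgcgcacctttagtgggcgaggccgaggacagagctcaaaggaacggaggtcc
Cox6a1, chr5:115348959-115349128, minus strand: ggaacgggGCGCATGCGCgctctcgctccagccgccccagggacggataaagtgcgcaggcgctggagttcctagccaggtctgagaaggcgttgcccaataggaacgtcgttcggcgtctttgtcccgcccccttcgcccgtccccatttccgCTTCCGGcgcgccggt
Cox7c, chr13:86046796-86046965, minus strand: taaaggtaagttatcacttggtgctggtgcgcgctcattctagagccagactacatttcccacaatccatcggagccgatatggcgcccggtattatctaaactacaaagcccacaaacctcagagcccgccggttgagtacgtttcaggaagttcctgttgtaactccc
Atp5o, chr16:91931631-91931800, minus strand: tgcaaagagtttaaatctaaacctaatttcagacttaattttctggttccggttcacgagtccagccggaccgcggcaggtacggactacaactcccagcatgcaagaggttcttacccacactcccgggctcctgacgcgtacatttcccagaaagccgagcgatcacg

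In the stretches shown, Uqcrfs1, Ndufv1, Cox7c and Atp5o held none of these motif letters, whereas Cox6a1, which did not follow the others, held those of NRF1, on both strands of 1 place, and of GABP. The motifs were searched on both strands in windows of 250 bases before to 50 after each start, found for 60 of 70 structural subunits. The letters GCATGCGC of NRF1 occurred in 10 of 60 subunit windows (16.7%), against 4.07% of windows of all 16918 named genes with one and 5.99% of those whose level reached the median. The letters CCGGAAG of GABP occurred in 17 (28.3%), against 12.7% and 19.7%. The letters AANATGGCG of YY1 occurred in 9 (15.0%), against 3.66% and 5.99%, and TNAAGGTCA of ERR in 2 (3.33%), against 1.18% and 0.932%. A window that holds several motifs was counted for each.

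The correlation of a subunit with the others was also set beside these letters, as a description with no test. Subunits with the NRF1 letters had a median r of 0.453 and those without 0.531. For the other motifs the holders had the higher median, at 0.568 with and 0.509 without the GABP letters, 0.580 with and 0.508 without those of YY1, and 0.660 with (2 subunits) and 0.508 without those of ERR. The 60 bases before the start of the other subunits whose NRF1 letters lie within them are given to show the range, with those letters in capitals.
Ndufa11, chr17:56717702-56717761, plus strand: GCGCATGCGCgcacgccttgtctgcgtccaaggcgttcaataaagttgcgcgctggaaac
Ndufa8, chr2:36049339-36049398, minus strand: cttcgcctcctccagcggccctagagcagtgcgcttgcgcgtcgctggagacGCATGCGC
Sdhb, chr4:140961211-140961270, plus strand: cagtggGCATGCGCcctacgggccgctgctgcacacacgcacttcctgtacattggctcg
Atp5g2, chr15:102671048-102671107, minus strand: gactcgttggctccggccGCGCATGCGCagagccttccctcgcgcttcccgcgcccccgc
Atp5k, chr5:108434400-108434459, minus strand: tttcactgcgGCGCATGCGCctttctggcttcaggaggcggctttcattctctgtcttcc

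Of these 5 subunits Sdhb followed the others closely (r = 0.813), Ndufa11 and Atp5k less so (r = 0.419 and 0.408), and Ndufa8 and Atp5g2 weakly (r = 0.232 and 0.199). A match is a description of letters and does not show that a factor binds there in these livers.

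Genes that work with the chain but lie outside the naming rule were read from lists. Cycs, the somatic cytochrome c, averaged 13.79 in heterozygous and 13.70 in WT livers (difference 0.10, SE 0.06, adjusted p = 0.829, limma), and Cyc1, the cytochrome c1 of complex III, differed by 0.11 (SE 0.09, adjusted p = 0.904). Cyct, the testis cytochrome c, was below the floor. Of 41 assembly factors outside the naming rule, 1 was lower and 2 were higher at an unadjusted p under 0.05. The higher pair were Cox19, a factor of copper supply to complex IV, which averaged 9.15 in heterozygous and 8.85 in WT livers (difference 0.30, SE 0.11, adjusted p = 0.627, limma), and Lyrm7, a chaperone of the Rieske protein, with 7.16 in heterozygous and 6.80 in WT livers (difference 0.36, SE 0.14, adjusted p = 0.674, limma). None of these passed adjustment over all genes. At an unadjusted p under 0.05, 3.63% of all genes were lower and 2.78% higher, the shares to set beside these counts and those below.

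A list of 9 regulators and carriers held Atpif1, Slc25a3, Slc25a4, Slc25a5, Ucp1, Ucp3, Vdac1, Vdac2 and Vdac3. Of the 9, 7 lay above the floor. Only the adenine nucleotide carrier Slc25a4 was past an unadjusted p of 0.05 (9.53 in heterozygous and 9.76 in WT livers, difference -0.24, SE 0.10, adjusted p = 0.675, limma). Atpif1, the inhibitory factor of the ATP synthase, differed by -0.12 (SE 0.07, adjusted p = 0.827, limma). Among 23 transcriptional and mitochondrial regulators of the chain 1 was lower at that level, Polrmt, the mitochondrial RNA polymerase (7.95 in heterozygous and 8.12 in WT livers, difference -0.17, SE 0.08, adjusted p = 0.756, limma), and none was higher, while Mterf3, a mitochondrial transcription factor, differed by 0.15 (SE 0.07, adjusted p = 0.798). Citrate synthase (Cs), the first enzyme of the tricarboxylic acid cycle, averaged 14.80 in heterozygous and 14.58 in WT livers (difference 0.22, SE 0.11, adjusted p = 0.777, limma). Of the 17 genes on the list of that cycle, 0 were past an unadjusted p of 0.05 in either direction. The 10 subunits encoded by mitochondrial DNA gave little range to read, since 9 of 10 averaged within 0.5 of the maximum of the table, 19.93. The exception, ND6, averaged 16.92 in heterozygous and 17.04 in WT livers.

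The mean of the structural subunits varied over mice together with some of these lists. With genotype means removed and n = 20, its correlation was 0.779 with the mean of the assembly factors. It was 0.725 with that of the mitochondrial ribosomal proteins and 0.657 with that of the transcriptional and mitochondrial regulators. For the tricarboxylic acid cycle list it was 0.620 (0.801 in heterozygous and 0.266 in WT mice). It was lower for the other partners of the chain taken as lists. With the list of 9 regulators and carriers that holds Atpif1, Slc25a, Ucp and Vdac genes, 7 of them above the floor, it was 0.083. With the subunits encoded by mitochondrial DNA it was 0.236. Of these subunits, 9 of 10 averaged within 0.5 of the highest value, 19.93, so 0.236 cannot show how closely they follow. The list of Cycs, Cyc1 and the testis gene Cyct gave 0.122 (0.483 in heterozygous and -0.225 in WT mice). Cyct lay below the floor, whereas Cyc1 by itself was among the 100 genes most like the subunit mean. The correlation of the subunit mean was 0.340 with the cytosolic ribosomal proteins, and -0.046 for that list without heterozygous mouse 5 and WT mouse 8. With the proteasome subunits it was 0.569 (0.611 in heterozygous and 0.485 in WT mice), and 0.384 without the same 2 mice. The olfactory receptor genes used for the floor had -0.311 (-0.640 in heterozygous and 0.114 in WT mice). Among cell type markers the correlation was 0.491 for the hepatocyte list, -0.423 for the stellate cell and myofibroblast list and 0.419 for the T, B and NK cell list. It was -0.316 for the cholangiocyte list and 0.208 for the sinusoidal endothelial list. Without heterozygous mouse 5 and WT mouse 8 these 5 lists gave, in the same order, 0.676, -0.494, 0.200, -0.359 and 0.208. Over all 20 mice the macrophage list had -0.078, with -0.231 in heterozygous and 0.240 in WT mice. The muscle and adipose list, of which 16 of 17 genes lay below the floor, had -0.549. Its values were -0.823 in heterozygous and 0.071 in WT mice. With array measures the correlation of the subunit mean was -0.589 for the array median (-0.852 in heterozygous and -0.232 in WT mice) and 0.364 for the interquartile range. The part of array-wide differences and of cell makeup in the shared variation was not tested.

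The 10 genes outside the members whose levels followed the subunit mean most closely came from several pathways. They were Ddt, the D-dopachrome tautomerase (r = 0.922), Ecsit, an assembly factor of complex I (r = 0.916), Igfbp4, a secreted binding protein of insulin-like growth factors (r = 0.890), Urah, an enzyme of urate breakdown (r = 0.868), Chchd10, a protein of the mitochondrial intermembrane space (r = 0.849), Mcrip2 (r = 0.844), Coq9, a factor of ubiquinone synthesis (r = 0.833), Flad1, the FAD synthase (r = 0.833), Ttc36 (r = 0.832) and Acy1, an aminoacylase (r = 0.826), each over 20 mice with genotype means removed. Ddt spanned 13.22 to 14.14 in heterozygous and 13.31 to 14.05 in WT livers, with r = 0.930 in heterozygous and 0.917 in WT mice. None of the 10 passed the test between genotypes, with a smallest adjusted p of 0.841 (Acy1, difference 0.25, limma). Among the 100 genes most like the subunit mean, which reached down to r = 0.710, the lists held Cyc1, the assembly factors Cox10 and Ecsit, Idh3b of the tricarboxylic acid cycle, the mitochondrial ribosomal protein Mrps35 and 1 olfactory receptor gene.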

How the data were processed

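RNA of 20 livers, 10 Bnc2 heterozygous and 10 WT, was measured on Affymetrix MoGene 2.0 arrays, 1 per mouse. Precision is limited by how many arrays there were. The authors normalized the arrays with Affymetrix Power Tools (GC correction, intensity scaling and RMA, at the level of core genes), and the deposited log2 values of 41345 probe sets were used as given. The genome build behind the probe annotation is not given in the sources used here.

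Of the probe sets, 23521 named 1 gene, 1820 several and 16004 none, and those with 1 gene were averaged per symbol into 22180 named genes. Difference means heterozygous minus WT from limma 3.58.1 (lmFit and eBayes, R 4.3.3) on all named genes without a covariate, with Benjamini-Hochberg adjustment over all of them and a threshold of 0.05. The fit was tested on simulated data. Correlations used residuals after removal of genotype means. Promoter windows came from RefSeq (GRCm38.p6).

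Members named in the text were, per complex and above the floor, the 3 with the smallest p (complex I 6, complex II all), the 3 structural subunits that followed the others best and the 3 that did so least, and every isoform. From each fixed list outside the members up to 2 with the smallest p could be named, and the 10 genes most like the subunit mean. Other genes were named as examples after their values were seen. The members and lists were chosen with earlier results of these data known.

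Alternatives were quantile normalization, centring on array medians, use of the brightest probe set, a filter at the median level, a replicate block, eBayes with trend, array weights, a principal component as covariate, leaving out the 4 arrays of smallest spread or each mouse, and structural subunits only.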

Additional observations from a re-analysis of the deposited data

Results flagged for a closer look

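Of 76 groups of 10 mice checked for a mouse standing apart (38 levels or means in each genotype), 4 had one, by a gap to the nearest mouse that exceeded Dixon's 95% critical value. Chance flags about 1 in 20 groups. WT mouse 8 stood above the other WT mice in the mean of the complex I structural subunits, with 11.98 against 11.68 to 11.83, and in the mean of all structural subunits, with 12.52 against 12.26 to 12.39. Atp5g2, a gene of the c subunit of the ATP synthase, was 15.97 in WT mouse 7 and 15.63 to 15.78 in the other WT mice. Cox7c was 7.54 in WT mouse 9 and 6.99 to 7.22 in the other WT mice. The cause was not tested.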

How the results depend on the processing

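No member passed the adjusted threshold in any of the settings tried, and the smallest adjusted p of the named members was 0.527 (limma). The count of members lower at an unadjusted p under 0.05 was 0 with arrays centred on their medians and 0 without the 4 arrays of smallest spread, and 0 to 2 when 1 mouse was left out (0 without heterozygous mouse 1, 6 or 9 or WT mouse 2, 4 or 8, and 2 without heterozygous mouse 5 or WT mouse 3). For Uqcrq the unadjusted p was 0.0597 with centred arrays and 0.105 without the 4 arrays (limma). The count of those higher was 0 to 1, the 1 being Ndufaf5 without heterozygous mouse 1 or WT mouse 9 and Uqcrc1 without heterozygous mouse 3. The median difference lay between -0.016 and 0.020 over all members when 1 mouse was left out, between -0.014 and 0.030 for complex I, between -0.041 and 0.026 for complex II, between -0.011 and 0.024 for complex III, between -0.023 and 0.053 for complex IV and between -0.036 and 9.039e-05 for complex V.

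The median pairwise correlation over all members, 0.222, was 0.163 with quantile normalization, where all gene pairs gave -8.385e-05, 0.28 with centred arrays (all gene pairs 0.103), 0.297 with the filter at the median level and 0.291 with structural subunits only. Quantile normalization gave 0.192 for complex I and 0.498 for complex II. The filter gave 0.403 for complex III and 0.383 for complex IV, and structural subunits only gave 0.403 for complex III and 0.351 for complex IV. With 1 mouse left out the ranges were 0.196 to 0.239 over all members, 0.249 to 0.312 for complex I, 0.563 to 0.674 for complex II, 0.191 to 0.337 for complex III, 0.045 to 0.12 for complex IV and 0.145 to 0.231 for complex V.

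Mouse numbers did not pair the genotypes: 5 of 10 same-numbered pairs had residual correlations above 0.1 and 1 was best matched by its own number. With the replicate number as a block the count of lower members stayed at 1, and the median pairwise correlation was 0.107 over all members (all gene pairs 0.086), 0.167 for complex I, 0.297 for complex II, -0.0105 for complex III and 0.107 for complex V.

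Signs near 0 turned in a few genes. Atp5o gave -0.036 with array weights and -0.077 without the 4 arrays, Cox8b -0.029 and -0.036, and Cox6b2 0.00211 with centred arrays. With 1 mouse left out the range was -0.067 to 0.0044 for Sdhb, -0.018 to 0.0701 for Sdhc, -0.062 to 0.035 for Uqcrfs1, -0.038 to 0.0062 for Ndufb9, -0.073 to 0.011 for Ndufv1, -0.016 to 0.082 for Atp5o, -0.0496 to 0.033 for Cox6b2 and -0.066 to 0.053 for Cox8b. The cause of these shifts was not tested. Signal near the floor or near the table maximum limits what single probe sets can show, and 10 mice per genotype limit differences to about the intervals given.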

Other observations

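Probe sets that list several genes were outside the comparisons above, and 10 of them name a respiratory chain symbol. The pair listing Cox6c with Gm6265 averaged 16.65 ± 0.11 in heterozygous and 16.66 ± 0.13 in WT livers (SD, n = 10 each) for 1 probe set, and 6.24 ± 0.15 in heterozygous and 6.30 ± 0.12 in WT livers for the other. Of the pair listing Ndufs6 with Ndufs6b, 1 averaged 16.04 ± 0.11 in heterozygous and 16.01 ± 0.16 in WT livers. Uqcr10 with Gm6293 averaged 9.74 ± 0.22 in heterozygous and 9.81 ± 0.21 in WT livers, and Ndufb4 with Ndufb4b and Ndufb4c 9.54 ± 0.17 in heterozygous and 9.64 ± 0.09 in WT livers. No test was run on these values.

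The genes whose levels ran most strongly against the subunit mean over mice were Asph, an aspartate hydroxylase of the endoplasmic reticulum (r = -0.81, with -0.82 in heterozygous and -0.81 in WT mice), Gm4166 (r = -0.81), whose level was below the floor, and Gm5141 (r = -0.80). These names were chosen after their values were seen. The subunit mean had an absolute correlation of 0.813 with the second principal component of all named genes whose level reached the median and of 0.2 with the first, which took 18.4% of the variance.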
